A study of Arabidopsis thaliana with 14 samples.

Results

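Cytochrome P450 genes of Arabidopsis thaliana were examined for H3K36me3, histone H3 trimethylated at lysine 36. The members were the nuclear protein-coding genes whose product in the RefSeq annotation of TAIR10.1 holds the words cytochrome P450, which gave 248 of 27444 genes. The choice used no ChIP value. Samples of meristem-enriched shoots, labelled as SAM (shoot apical meristem) with leaves of early stages, came from the Col-0 ecotype with no transgene or mutation named in the labels. All plants grew for 5 weeks at 16 °C in short days (8 h of light, 16 h of darkness), and harvest took place either at 16 °C or 1 day after they were moved to 25 °C. Chromatin was precipitated with an antibody against H3K36me3 in 4 samples per temperature and with an antibody against H3 in 3 samples per temperature, from 0.5 g of tissue each. Replicate A of H3K36me3 at 25 °C is titled as H3K36me3 but carries the H3 antibody in its antibody label, and since each deposited list pools its replicates, no result could be given without that sample.

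P450 enzymes are haem-dependent monooxygenases that insert an oxygen atom into small molecules. In plants they form one of the largest enzyme families, and they act in the synthesis or breakdown of sterols, carotenoids, hormones, cutin, lignin precursors and defence compounds. Plant P450s are sorted into clans of related families. The A-type families, those of the CYP71 clan, are mostly enzymes of secondary metabolism, while many hormone and sterol enzymes are non-A-type. H3K36me3 is laid down behind elongating RNA polymerase II and in plants lies over the transcribed part of active genes, mainly towards the start.

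Each list held regions of enriched H3K36me3 signal, with 50167 nuclear regions at 16 °C and 52432 at 25 °C. A gene was called marked where 1 bp or more of its body lay in a region. The covered percent gives how much of the gene body lay inside regions, and a gene at 20% or more was called well covered. The height of a region is its highest coverage, a signal whose lowest value was 179.4 in the 16 °C list and 179.3 in the 25 °C list. As the replicates of a temperature were pooled before the regions were called, there is no spread between samples, depth per sample is unknown, and no difference between the temperatures was tested. Intervals given below are 95% Wilson intervals and cover counting error over genes only, which are not replicates.

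The annotation label was first checked against the conserved cysteine loop that holds the haem iron. It was searched for as 10 residues in the protein encoded by each gene (Phe, 2 of any kind, Gly, 3 of any kind, Cys, 1 of any kind, then Gly or Ala). This loop was encoded by 230 of the 248 members (92.7%) and by 351 of all 27444 genes (1.28%). The 18 members without it encoded a median of 321 residues, against 509.5 residues for the members with it, and 11 of the 18 encoded fewer than 400. Of the 21 members that were well covered in at least 1 list, 4 lacked the loop, namely AT3G06150, CYP77A5P, AT3G60590 and AT5G19060. For CYP77A5P the symbol ends in P, the mark of a pseudogene, and the other three have no CYP family number. Their values are given here under the annotation's name, although this loop was not found in them.

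The coding bases of the loop are shown for 7 of the best covered members with known chemistry or a known neighbour. They mark the place in the gene that encodes the loop, and regions touched these bases in few P450 genes. The pattern alone does not identify a P450, since 351 genes encoded it and 230 of them are members. The codon of the haem-binding cysteine is in capitals, and each sequence is read 5′ to 3′ on the strand of the gene from the RefSeq TAIR10.1 genome.
CYP97B3: tttggtggaggaccaagaaaaTGCattgga
CYP97A3: ttcggtggaggaccgcggaaaTGTataggc
LUT1: ttcagtggagggcctagaaaaTGTgtaggc
CYP51G1: ttcggagggggaaggcacgggTGCcttgga
CYP72A11: tttgcgtggggatcgaggatcTGCattggc
CYP72A13: tttgcgtggggaccgaggatcTGCattggc
CYP91A2: tttgggaatggccggagaactTGTcccggc
These 30 bases lie at chr4:8630084-8630113 for CYP97B3 on the minus strand, and on the plus strand at chr1:11398992-11399021 for CYP97A3, chr3:19695001-19695030 for LUT1, chr1:3940394-3940423 for CYP51G1, chr3:4923983-4924012 for CYP72A11, chr3:4926729-4926758 for CYP72A13 and chr4:17598617-17598646 for CYP91A2. CYP72A11 and CYP72A13, which are neighbours, shared 29 of the 30 bases, and CYP97A3 and LUT1 shared 24. Over all pairs of the 12 best covered members with a loop the shared bases ranged from 12 to 29.

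Few P450 genes had a region at the loop. The loop began at a median of 1660 bp from the gene start over the 230 members. Its bases touched a region in 4 members at 16 °C, in 4 at 25 °C and in 6 in either list. In the bin of 1600 to 1700 bp after the start, which holds that median, 2.82% of P450 genes had a region in each list, against 15% and 20.1% of all genes. At 25 °C this was the lowest P450 bin after the start, with 4.03% in the bin before it and 6.05% in the bin after it. At 16 °C these were 4.03% and 1.21%. A bin spans 100 bp and the loop 30 bases, so the count at the loop is not read against these shares. In CYP91A2 the whole loop lay inside a region at both temperatures. In CYP712A1 5 of its 30 bases did so at 16 °C and all 30 at 25 °C.

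The bases at the centre of the widest 25 °C region are shown for 3 members, chosen after their values were seen, whose widest region was wider in that list, to show what kind of sequence the regions lay on. Coding bases are in capitals and intron bases in lower case, 5′ to 3′ on the strand of the gene.
CYP97B3: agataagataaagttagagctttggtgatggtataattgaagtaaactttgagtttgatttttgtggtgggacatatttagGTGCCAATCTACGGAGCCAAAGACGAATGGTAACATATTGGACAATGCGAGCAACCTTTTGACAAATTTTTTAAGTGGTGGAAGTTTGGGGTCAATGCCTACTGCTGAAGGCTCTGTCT
CYP51G1: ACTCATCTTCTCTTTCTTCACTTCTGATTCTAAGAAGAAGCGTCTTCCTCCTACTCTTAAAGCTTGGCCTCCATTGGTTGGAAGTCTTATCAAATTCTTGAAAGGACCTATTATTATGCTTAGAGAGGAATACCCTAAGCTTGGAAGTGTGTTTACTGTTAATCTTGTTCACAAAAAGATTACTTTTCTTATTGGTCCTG
CYP72A11: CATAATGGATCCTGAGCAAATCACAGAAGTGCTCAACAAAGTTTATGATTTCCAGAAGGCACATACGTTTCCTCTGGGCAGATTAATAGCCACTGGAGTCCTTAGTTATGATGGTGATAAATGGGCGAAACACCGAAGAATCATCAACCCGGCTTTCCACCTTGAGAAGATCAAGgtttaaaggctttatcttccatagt
The stretches lie at chr4:8632476-8632675 on the minus strand for CYP97B3, and on the plus strand at chr1:3938996-3939195 for CYP51G1 and chr3:4922626-4922825 for CYP72A11. Of the 200 bases 119 are coding in CYP97B3, 200 in CYP51G1 and 175 in CYP72A11. Over the whole regions, coding sequence made up 45% of the bases in CYP97B3, 60.0% in CYP51G1 and 65.7% in CYP72A11. The GC content of the region was 38.7% in CYP97B3 against 39.2% in its whole gene body, 36.8% against 40.6% in CYP51G1, and 41.9% against 42.5% in CYP72A11.

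Fewer P450 genes were marked than genes in general. At 16 °C 62 of the 248 P450 genes were marked (25.0%, interval 20 to 30.7%), against 56.0% of all protein-coding genes. At 25 °C 82 were marked (33.1%, interval 27.5 to 39.1%), against 59.5% of all genes. As the tissue was not sorted, fewer cells with the mark and less of the mark per cell cannot be told apart. Both lists marked 38 members (15.3%, against 50.2% of all genes), and neither list marked 142 (57.3% against 34.7%). Only the 16 °C list marked 24 (9.68% against 5.78%), and only the 25 °C list marked 44 (17.7% against 9.32%). Regions also covered little of each gene. At 16 °C 11 members were well covered, against a background of 32.6% of all genes, and at 25 °C 20 members were, against 40.6%. On average 2.88% of a P450 gene body was covered at 16 °C and 4.39% at 25 °C, against 14.0% and 18.7% over all genes. Among the 106 members with a region in either list, 78 were covered by less than 10% in both lists.

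More of the marked P450 genes had a larger than a smaller covered percent at 25 °C, as was so for genes in general. The covered percent was larger at 25 °C in 72 of the 248 members (29%), against 47.3% of all genes, and smaller in 34 (13.7%), against 17.2% of all genes. Among genes with a region in either list the larger value was at 25 °C in 67.9% of P450 genes and in 72.5% of all such genes, so that the share of rises lay near the background. Of the 38 members marked in both lists, 28 were larger at 25 °C and 10 were smaller. The same share over all genes marked in both lists was not counted, so this is not read as particular to P450 genes. Members marked in 1 list only carried narrow regions. The median width of the widest region was 75 bp in those marked at 16 °C only and 95 bp in those marked at 25 °C only, and in those marked in both lists it was 150 bp (16 °C) and 280 bp (25 °C). No member marked at 16 °C only was covered by more than 6.95%, and none marked at 25 °C only by more than 17.3%.

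**Figure D1:**
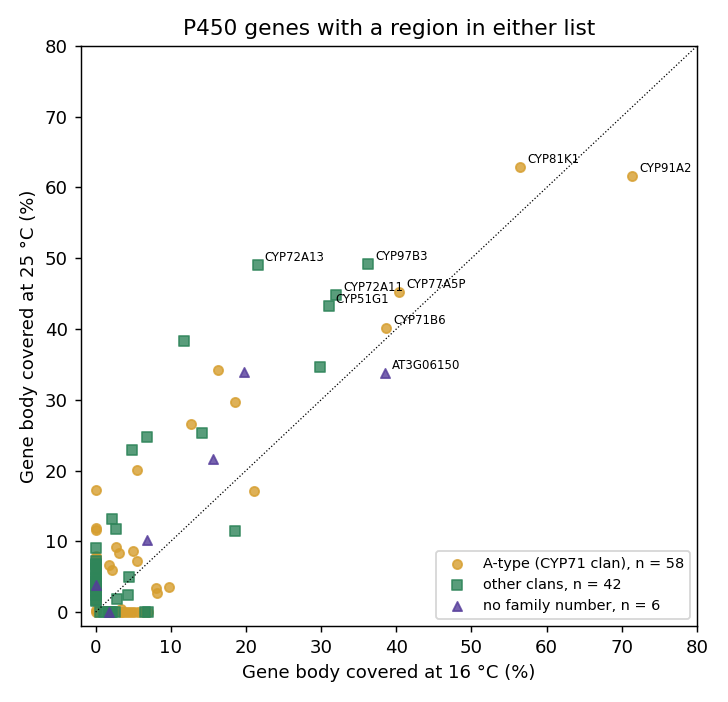
Share of the gene body inside H3K36me3 regions at 16 °C (x axis, percent) and 25 °C (y axis, percent) for the 106 P450 genes with a region in either list, 1 point per gene, with A-type genes as circles, other clans as squares and genes with no family number as triangles. The dotted line marks equal values; 72 points lie above it and 34 below, and 78 of the 106 points are under 10% on both axes.

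Gene length and intron number were compared next, because regions of all genes rose with both. The median gene body was 2053 bp long in P450 genes and 2078 bp in all genes, but P450 genes had a median of 1 intron against 3. Among genes without introns the share marked was near the background. At 16 °C it was 27.9% (interval 16.7 to 42.7%) of 43 P450 genes and 28.4% of all such genes. At 25 °C it was 34.9% (22.4 to 49.8%) against 32.5%. The well covered share was not near it, with 2.33% of these P450 genes at 16 °C and 4.65% at 25 °C. Of all genes without introns 14.2% and 18.1% were well covered. The P450 genes without introns were also longer, with a median of 1840 bp against 1053 bp. In genes with 5 to 9 introns the share marked at 16 °C was 30.8% (16.5 to 50%) of 26 P450 genes against 75.2% of all such genes. At 25 °C it was 34.6% (19.4 to 53.8%) against 78.5%. The share of all genes thus rose with the number of introns, while that of P450 genes lay between 21.4% and 30.8% at 16 °C in every class up to 9 introns. The 3 P450 genes with 10 or more introns, all of the CYP97 family, carried regions at both temperatures. Of all genes with 10 or more introns 88.2% were marked at 16 °C and 89.9% at 25 °C. By length, 19.6% of the 92 P450 genes of 1500 to 2000 bp were marked at 16 °C against 52.9% of all genes of that length, and 40.7% of the 27 in the longest class, from 3 kb up, against 82.2%. None of the 11 P450 genes under 1500 bp was marked in either list, which allows a share of up to 25.9% by the Wilson interval, against 23.1% and 27.1% of all genes of that length.

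**Figure D2:**
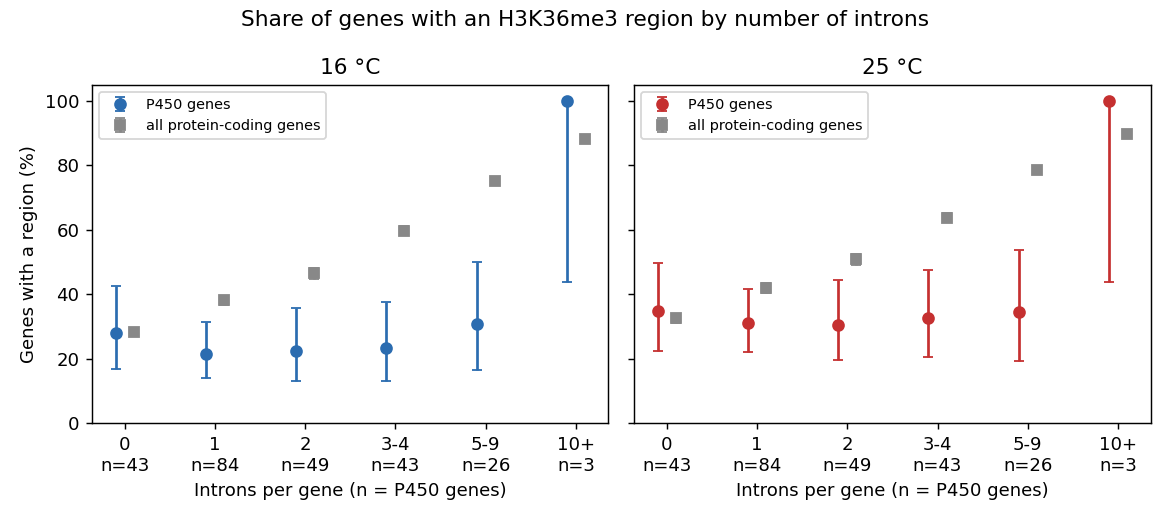
Percentage of genes with at least 1 H3K36me3 region (y axis) by number of introns (x axis, with the number of P450 genes) at 16 °C (left) and 25 °C (right), for P450 genes (circles) and all protein-coding genes (grey squares). Bars are 95% Wilson intervals, which are smaller than the squares for all genes; the 2 sets overlap at 0 introns and lie apart from 3 to 9 introns, where P450 genes stayed under 35%.

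The regions in P450 genes were narrower and less often shared between the lists. There were 104 regions at 16 °C with a median width of 115 bp and 130 at 25 °C with a median of 130 bp, against medians of 150 and 160 bp over the regions in all genes. Regions over 300 bp made up 14.4% at 16 °C and 16.2% at 25 °C in P450 genes, against 24.8% and 31.5% in all genes. The median height was 246.9 at 16 °C and 255.7 at 25 °C, against 281.3 and 301.3. Of the 16 °C regions in P450 genes, 43 (41.3%) were overlapped by a 25 °C region, and 35 (26.9%) of the 25 °C regions by a 16 °C region. Over the regions in all genes these shares were 69.5% and 54.0%. The place of the region centres was counted in P450 genes only, without the coding share of the gene body. These shares are therefore not read as a preference for coding sequence. The region centre fell in coding sequence in 57.1% at 16 °C and 69.5% at 25 °C, and in an intron in 21.9% and 15.3%.

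Around the gene start P450 genes showed only a low rise. Of all genes, 37.4% at 16 °C and 42.1% at 25 °C had a region 400 to 500 bp after the start, the highest bin for both lists. In P450 genes the highest bin was 500 to 600 bp after the start at 16 °C, with 9.27% of genes, and 900 to 1000 bp at 25 °C, with 11.3%. At 25 °C the bins from 600 to 1000 bp were nearly level, at 10.5% to 11.3% (26 to 28 genes). No move of the peak between the lists is read from these bins.

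**Figure D3:**
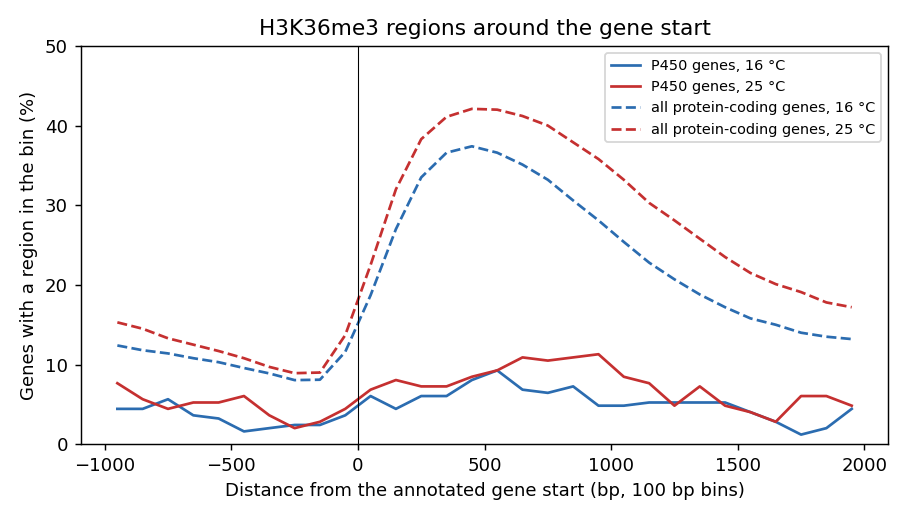
Percentage of genes with an H3K36me3 region (y axis) in bins of 100 bp from 1000 bp before to 2000 bp after the annotated gene start (x axis, bp), for P450 genes (solid) and all protein-coding genes (dashed) at 16 °C (blue) and 25 °C (red). The dashed lines peak at 37.4% and 42.1% and the solid lines at 9.27% and 11.3%.

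The carotenoid enzymes were the best covered group. All 3 CYP97 genes, which encode hydroxylases of the carotenoid pathway to lutein or close relatives of them, were marked at both temperatures, and all 3 had a larger covered percent at 25 °C. CYP97B3 (AT4G15110, chr4:8629647-8633118, minus strand, 13 introns) was covered by 36.3% at 16 °C and 49.2% at 25 °C. It carried 3 regions in each list, the widest of 490 bp in the 16 °C list and of 1230 bp in the 25 °C list, and the latter was the widest 25 °C region in any P450 gene. That region, deposited as chr4:8631960-8633190, reached a height of 636.7, above the 382.6 of the tallest region in this gene at 16 °C. CYP97A3 (AT1G31800, chr1:11396402-11399714), the beta-ring hydroxylase LUT5, was covered by 29.9% and 34.7%. Where 16 °C had 6 regions of at most 220 bp, 25 °C had 1 region of 1030 bp over the first part of the gene and 3 narrower ones. LUT1 (AT3G53130, chr3:19692757-19697542), the epsilon-ring hydroxylase CYP97C1, was covered by 14.2% and 25.3%, and its widest region measured 540 bp in the 16 °C list and 940 bp in the 25 °C list. LUT1 overlaps the gene AT3G53140 on the same strand by 1900 bp, although its regions lay outside that overlap. Those 1900 bp count in the LUT1 body of 4786 bp and so lower its covered percent.

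Of the sterol enzymes, CYP51G1 was well covered and the CYP710A genes were not. CYP51G1 (AT1G11680, chr1:3938422-3940871) encodes the sterol 14-alpha-demethylase, an early step shared by all plant sterols. It was covered by 31.0% at 16 °C and 43.2% at 25 °C, with 250 bp for its widest region in the 16 °C list and 790 bp in the 25 °C list. The tallest region in this gene had a height of 551.8 at 16 °C and 442.6 at 25 °C, so height and covered percent moved in opposite directions. Of the 4 CYP710A genes, which encode sterol C-22 desaturases, none was marked at 16 °C and 2 were at 25 °C, among them CYP710A1 with 1 region of 80 bp.

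Among the hormone genes that the product rule matched, CYP88A3 was the only one well covered. CYP88A3 (AT1G05160, chr1:1487378-1491005, minus strand), also called KAO1, encodes an ent-kaurenoic acid oxidase of gibberellin synthesis. It was covered by 11.7% at 16 °C in 5 regions of at most 160 bp, and by 38.3% at 25 °C in 3 regions of which the widest was 970 bp. The difference of 26.6 points was among the 6 largest rises. CYP714A2, which encodes an enzyme that inactivates gibberellins, had 1 region of 100 bp at 16 °C and none at 25 °C. The brassinosteroid synthesis list had 5 matched genes, with 3 marked at 16 °C, 2 marked at 25 °C and none well covered. CPD, which encodes the oxidase CYP90A1 of that pathway, was covered by 2.78% and 1.86%. CYP724A1, a relative of the C-22 hydroxylase gene DWF4, was unmarked at 16 °C and covered by 4.30% at 25 °C. No region lay in either list in the brassinosteroid-inactivating genes (2), the CYP707A genes for abscisic acid 8′-hydroxylases (4) or the CYP735A genes for cytokinin trans-hydroxylases (2). The jasmonate list had 1 of 3 genes marked, CYP94B1, whose enzyme hydroxylates jasmonoyl-isoleucine, with 6.30% covered at 25 °C only. In the strigolactone list CYP722A1 had 2.97% covered at 25 °C, and CYP711A1 (MAX1) had no region.

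The CYP78A family, to which the growth regulator gene KLUH (CYP78A5) belongs, had no region in its 6 genes at 16 °C and narrow regions in 2 at 25 °C. CYP78A5 had 1 region of 50 bp, 2.45% of its body, and CYP78A9, which acts in seed and fruit growth, had 1 region of 160 bp, 7.65% of its body. With 1 region each, these values show a region above the authors' threshold in one list and no more.

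The phenylpropanoid, cutin and pollen wall genes that the product rule matched were covered by under 10% each. Of 5 matched phenylpropanoid and flavonoid genes, 3 were marked at each temperature and none was well covered. CYP98A3, which encodes the p-coumaroyl ester 3′-hydroxylase of lignin synthesis, was covered by 2.69% at 16 °C and 9.23% at 25 °C. CYP98A8, which acts on phenolamides of the pollen coat, was covered by 2.14% and 5.88%. CYP84A4, of arabidopyrone synthesis, had 6.29% covered at 16 °C and no region at 25 °C, and was among the 6 largest falls. Of 9 cutin, suberin and wax genes, 2 were marked at 16 °C and 4 others at 25 °C. CYP86A8, a cutin fatty acid omega-hydroxylase gene, had 2 regions and 4.91% covered at 25 °C only, and CYP77A6, an in-chain hydroxylase gene of the cutin pathway, had 4.29% covered at 16 °C only. The sporopollenin genes CYP704B1 and CYP703A2 were covered by 4.25% and 0% at 16 °C and by 2.36% and 4.15% at 25 °C. The CYP86 family as a whole had 2 of 10 genes marked at 16 °C and 8 of 10 at 25 °C, none of them well covered. The family was singled out after its counts were seen.

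Among the defence genes, CYP91A2 stood apart from its list. CYP91A2 (AT4G37430, chr4:17597110-17598958), listed by RefSeq also as CYP81F1 and known to modify indole glucosinolates, was covered by 71.4% at 16 °C and 61.7% at 25 °C, the highest mean of all members. At 16 °C 1 region of 1320 bp ran over most of the gene, the widest 16 °C region in any P450 gene, and at 25 °C regions of 320 and 820 bp took its place. The tallest region rose from a height of 446.8 to 661.0 while the covered percent fell. AT4G37432, a long non-coding RNA gene on the opposite strand, overlaps 1820 bp of CYP91A2, and the regions cannot be assigned to one strand. Of the other 9 glucosinolate genes, 1 was marked at 16 °C and 1, CYP81F3 with 6.12% covered, at 25 °C. Of 4 camalexin and cyanogenic defence genes, CYP71A13, of camalexin synthesis, had 6.73% covered at 25 °C only and CYP82C2, of 4-hydroxyindole-3-carbonylnitrile synthesis, 2.26% at 16 °C only. The 5 P450 genes of the triterpene gene clusters had no region in either list.

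Over all role lists, 70 members were matched, with 18 marked in the 16 °C list (25.7%), 25 marked in the 25 °C list (35.7%), and 37 had no region in either list. Among the 178 members on no role list 24.7% and 32.0% were marked. Both pairs of shares lay close to those of the whole family.

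Among the A-type genes, CYP81K1, CYP71B6 and CYP712A1 were also well covered in at least 1 list. CYP81K1 (AT5G10610, chr5:3353442-3355124) was covered by 56.4% at 16 °C in 4 regions of at most 350 bp, and by 62.9% at 25 °C with 1 region of 960 bp and 1 of 100 bp. CYP71B6 (AT2G24180, chr2:10281718-10283735), which acts on indole-3-acetonitrile, was covered by 38.7% and 40.1%, and its widest region was 460 bp and 610 bp. CYP712A1 (AT2G42250, chr2:17600075-17601849) rose from 16.3% to 34.1%, and here the regions lay towards the gene end, 1494 bp from the gene start for the centre of the 25 °C region. A long non-coding RNA gene on the other strand, AT2G42247, overlaps all 1775 bp of it.

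Of the covered members that lack the loop, CYP77A5P (AT3G18270, chr3:6261733-6264361) was covered by 40.3% at 16 °C and 45.3% at 25 °C, and its widest region was 850 bp and 1190 bp. AT3G06150 (chr3:1861759-1864566) was covered by 38.5% and 33.8%, and its region of 810 bp at 25 °C had the greatest height of any in the members, 777.2. AT3G60590 (chr3:22398228-22400257) was covered by 19.7% in 1 region at 16 °C and by 34.0% in 3 regions at 25 °C. The 230 members with the loop were marked in 25.2% at 16 °C and 33.9% at 25 °C. Of the 18 members without it, 22.2% were marked at each temperature. Well covered were 3.91% and 6.96% of the members with the loop. Of those without it, 11.1% and 22.2% were well covered, which is 2 and 4 genes, and no difference was tested.

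**Figure D4:**
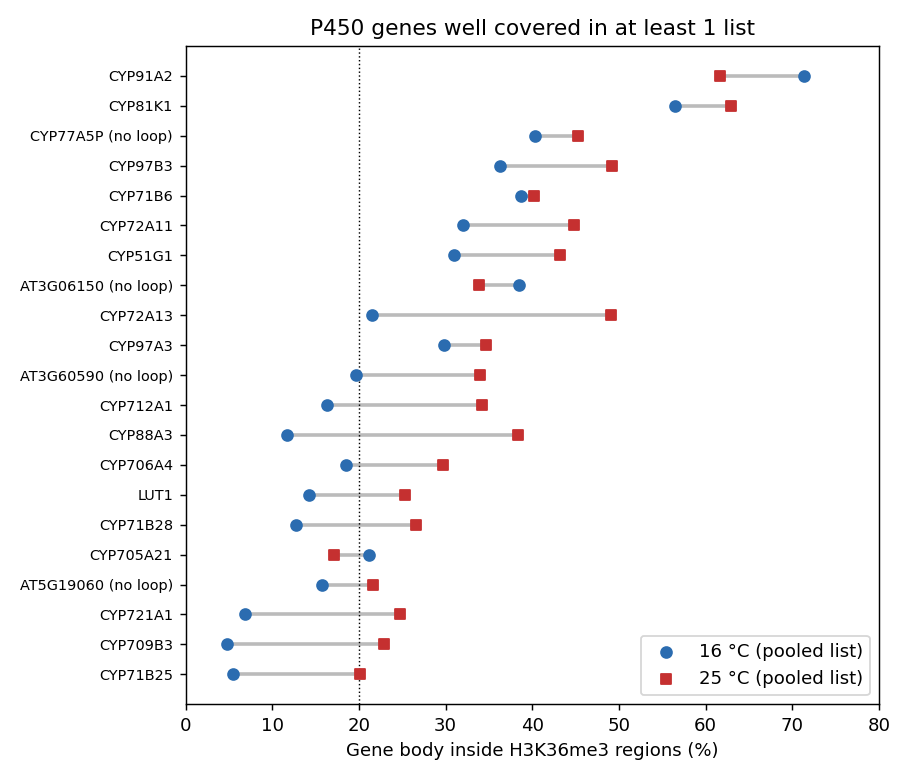
Share of the gene body inside H3K36me3 regions (x axis, percent) for the 21 P450 genes at or above 20% (dotted line) in at least 1 list, 1 row per gene in order of the mean, with 16 °C as circles and 25 °C as squares; each value comes from 1 pooled list, and genes without the cysteine loop are marked. In 18 rows the square lies to the right of the circle, and in CYP91A2, AT3G06150 and CYP705A21 to the left. Of these genes 11 reached 20% at 16 °C, 20 at 25 °C and 10 at both. A gene that reached it in 1 list only has its larger value in that list by the selection, so these row counts are not a result.

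Further well covered members, named after their values were seen, were CYP706A4 with 18.5% at 16 °C and 29.6% at 25 °C, CYP71B28 with 12.7% and 26.6%, CYP705A21 with 21.1% and 17.1%, AT5G19060 with 15.7% and 21.7%, and CYP71B25 with 5.49% and 20.1%. The members nearest the threshold at 16 °C were AT3G60590 at 19.7% and CYP705A21 at 21.1%. At 25 °C they were CYP71B34 at 17.3% and CYP71B25 at 20.1%.

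The largest rises included CYP721A1, CYP709B3 and CYP71B34, which were covered by under 10% at 16 °C. CYP721A1 (AT1G75130) rose from 6.87% in 1 region to 24.8% in 3 regions. CYP709B3 (AT4G27710), which acts in the response to abscisic acid and salt, rose from 4.81% in 2 regions to 22.9% in 5 regions, none wider than 140 bp. CYP71B34 (AT3G26300) had no region at 16 °C and 17.3% covered in 2 regions at 25 °C. The largest falls were smaller than the rises. Beside CYP91A2 and CYP84A4 they were CYP72A15, from 18.5% to 11.5%, and 3 genes with no region at 25 °C, namely CYP96A12 with 6.95%, CYP71B10 with 6.94% and CYP704A2 with 6.51% at 16 °C. In CYP71B10 the wider of the 2 regions measured 790 bp, of which 92 bp lay in the gene and the rest in or near its neighbour AT5G57250.

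The tandem run of CYP72A genes on chromosome 3 showed how unevenly neighbours were covered. The run holds 8 members within chr3:4912324-4939871, each at most 10 kb from the next. Of these 5 were marked in each list and 7 in either list. CYP72A11 (AT3G14650, chr3:4922131-4924694) was covered by 32.0% at 16 °C and 44.9% at 25 °C, with 1 region of 880 bp and 1150 bp. The adjacent CYP72A13 (AT3G14660, chr3:4924777-4927607) was covered by 21.5% and 49.1%, a rise of 27.6 points and the largest of all members, with 4 regions at 16 °C and 5 at 25 °C. At 25 °C these regions were spread along much of the gene with gaps between them, with centres from 413 to 2238 bp after its start. The other 6 genes of the run were covered by 0 to 18.5% at 16 °C and by 0 to 11.5% at 25 °C, and CYP72A8 had no region. As CYP72A genes resemble each other, the share of 50-base stretches of a gene found at one place only in the genome was counted, and it was 95.6% in CYP72A11 and 98.6% in CYP72A13.

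**Figure D5:**
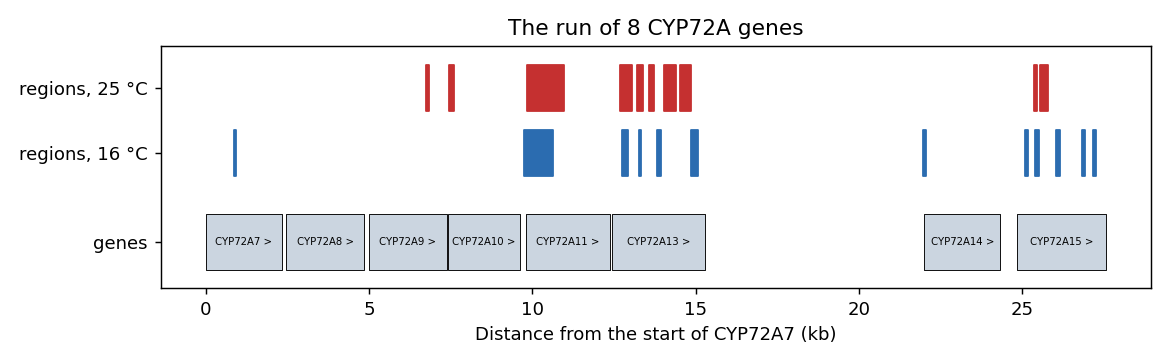
Map to scale of the 8 CYP72A genes of the run (grey boxes, all on the plus strand) with the H3K36me3 regions that overlap them at 16 °C (blue) and 25 °C (red), by distance in kb from the start of CYP72A7. The widest bars lie over CYP72A11 (880 and 1150 bp), the 25 °C bars over CYP72A13 are spread along the gene with gaps, and CYP72A8 has none.

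Other tandem runs were marked to different degrees. There were 13 runs of at least 4 members, holding 74 members, with 32.4% of them marked in the 16 °C list and 40.5% in the 25 °C list. Of the 71 members in runs of 2 or 3, 15.5% and 18.3% were marked, and of the 103 members on their own 26.2% and 37.9%. The 6 genes of the run from CYP71A26 to CYP71A21 had no region in either list. The 9 genes from CYP71B16 to CYP71B24, the largest run, had none at 16 °C and 4 marked at 25 °C. The 7 genes from CYP71B25 to CYP71B37 had 3 and 5 marked.

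Non-A-type genes had the larger share of marked genes in both lists, by differences whose intervals included 0. The share marked among 148 A-type genes was 22.3% in the 16 °C list and 29.7% in the 25 °C list, while among 84 non-A-type genes it was 28.6% and 39.3%. The difference was 6.27 points (interval −5.01 to 18.29) at 16 °C and 9.56 points (−2.93 to 22.21) at 25 °C. The direction at 16 °C turned with the number of introns. With 0 to 2 introns 23.6% of 127 A-type and 16.7% of 36 non-A-type genes were marked at 16 °C, and with 3 or more 14.3% of 21 and 37.5% of 48. At 25 °C these shares were 29.1% and 41.7% with 0 to 2 introns, and 33.3% and 37.5% with 3 or more. Within the non-A-type genes, the CYP72 clan had 8 of 19 marked at 16 °C and 9 at 25 °C, the CYP86 clan 7 and 13 of 32, and the CYP85 clan, which holds many hormone enzymes, 5 and 5 of 24. Among the larger A-type families, CYP71 had 7 marked genes of 50 in the first list and 15 in the second, and CYP705 had 5 of 24 in each.

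Genes overlapping another gene raise a limit on these values. Of the 21 well covered members 10 overlap another annotated gene, against 44 of all 248 members and 7772 of all 27444 genes. Without such genes 204 members were left, of which 5 in place of 11 were well covered at 16 °C and 11 in place of 20 at 25 °C. The well covered share of all genes without an overlap was not counted. Of the 204 members 19.6% and 28.4% were marked, against 50.9% and 54.1% of all genes without an overlap.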

How the data were processed

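H3K36me3 ChIP-seq reads were aligned by the authors to TAIR10, the submitters' processing notes naming Bowtie2 and the methods Bowtie with default settings (versions not given in the sources used here). The authors extended reads to 150 bp and called regions with the Dpeak function of DANPOS2 on the pooled replicates of each temperature. Each deposited list gives positions in steps of 10 bp, the height of a region as a coverage signal, and the −log10 of its p-value. The sources used here do not say how the H3 samples were used, and they were not analysed here. Depth per sample is unknown.

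Gene models came from RefSeq TAIR10.1. Overlaps, covered percents, Wilson intervals and motif searches were computed with Python 3.11.15, pandas 2.3.3 and numpy 2.4.6, figures with matplotlib 3.10.9, and the overlap code was tested on simulated data. An interval of a difference between shares combines both Wilson intervals. No test was run, because pooled lists leave no replicates. The labels call the samples biological replicates.

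Members and role lists were chosen with earlier results of these data known. Named genes were the 12 with the highest mean covered percent, the 6 largest rises and falls among members of at least 1000 bp, the 2 best covered of each role list where marked, role list members with no region, and the members with the 4 widest regions of each list. Role list names were matched to RefSeq symbols and synonyms. Alternatives changed the regions, overlap, gene body, thresholds or member rule, 1 at a time.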

Additional observations from a re-analysis of the deposited data

How the results depend on the processing

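No paired analysis was possible because the replicates of each temperature were pooled before regions were called. Of 95 alternative values 62 were classed as near the value reported and 33 as moved. The 62 include every alternative of the difference between non-A-type and A-type genes. That class says little here, as the intervals were wide (−5.01 to 18.29 points at 16 °C, −2.93 to 22.21 at 25 °C). With regions over 150 bp the difference was 0.9 points at 16 °C and 1.09 at 25 °C, against 6.27 and 9.56 with all regions. With regions of at least 100 bp, 37 members were marked at 16 °C, 54 at 25 °C and 24 in both, and 18 had a smaller covered percent at 25 °C. With regions over 150 bp these were 21, 29, 18 and 7, with 25 larger at 25 °C. With regions at or above the median −log10 p they were 25, 35, 20 and 10, with 30 larger, and with the 25083 tallest regions of each list 25, 32, 20 and 10, with 27 larger. With at least 100 bp of the gene covered, 35, 54 and 24 members were marked at 16 °C, at 25 °C and in both. Without genes overlapping another gene, 40 were marked at 16 °C and 23 in both, and 5 and 11 were well covered. In the first 1000 bp, 39 were marked at 16 °C, 17 were smaller at 25 °C, and 18 were well covered at 16 °C. Well covered members numbered 19 at 16 °C from 10%, and 13 at 25 °C from 30%. With reciprocal overlap of 50%, 13 regions of each list were shared. The lower share marked among P450 genes was present in each setting compared with all genes: 8.47% and 11.7% against 41.4% and 46.1% with regions over 150 bp, and 14.1% and 21.8% against 49.9% and 53.4% with at least 100 bp covered. Restriction to members with the loop and removal of members with under 90% of 50-base stretches found once were both added after seeing the data. Under both, all of these counts were classed as near the value reported. Narrow, low regions thus carry most single calls, and depth per replicate, which limits them, is unknown.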

Other observations

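The rule by product name left out 9 genes whose symbol or synonym is a plant P450 name, and they were looked at separately. C4H (AT2G30490), which encodes cinnamate 4-hydroxylase at the entry to the phenylpropanoid pathway, was covered by 38.5% at 16 °C and 54.9% at 25 °C, with 2 regions in each list. GA3 (AT5G25900), the ent-kaurene oxidase gene of gibberellin synthesis, was covered by 16.5% and 38.0% in 3 regions each. KAO2 (AT2G32440), which encodes the same enzyme activity as CYP88A3, had 17.2% covered in 5 regions at 16 °C and 8.14% in 3 regions at 25 °C, so that the covered percent of the pair differed in opposite directions between the lists. CYP79A2 and the brassinosteroid gene BR6OX1 had 1 region each at 16 °C and none at 25 °C. No region lay in BR6OX2, in the ferulate 5-hydroxylase gene FAH1, or in the oxylipin genes AOS and HPL1.

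Other families of enzymes that modify small molecules were counted by the same rule. Of 131 UDP-glycosyltransferase genes, which attach sugars to hormones and secondary metabolites, 29.8% were marked at 16 °C and 41.2% at 25 °C. Of 97 genes for 2-oxoglutarate and Fe(II)-dependent oxygenases, 41.2% and 52.6% were marked. For P450 genes the shares were 25.0% and 33.1%, and no difference between the families was tested.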
